A study of Homo sapiens with 6 samples.

Results

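Levels of 10 noncoding transcripts were examined in IMR90 cells, a line of human fetal lung fibroblasts, that carried either an empty vector or a cDNA of ARID1B, a DNA-binding subunit of the SWI/SNF chromatin remodeling complex. The 10 genes were taken by symbol from a table of 57232 genes. They are the nuclear RNAs MALAT1 and NEAT1 and 8 host genes of small nucleolar RNAs (snoRNAs), which are GAS5, SNHG1, SNHG5, SNHG6, SNHG7, SNHG8, ZFAS1 and EPB41L4A-AS1. All 10 passed the filter on low values, an average over the 6 libraries of 1 FPKM or more, which left 10416 genes for testing. FPKM counts fragments relative to the length of the gene and the size of the library.

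Both groups were IMR90 cells at passage 13. They were infected with the empty vector or with ARID1B cDNA, kept in puromycin until day 4 to select for integration, and collected on day 6. Each group held 3 libraries, called vector and ARID1B replicates 1, 2 and 3 here, made with a stranded mRNA kit. Where 3 values of a group follow each other, they stand in the order of replicates 1, 2 and 3, and SE is the standard error of the fit. The study calls the 3 libraries of a group biological replicates, and the sample labels do not say whether they came from separate cultures, so the p-values measure the spread between these libraries.

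Library totals, read from the steps of the FPKM values, lay between 63386813 and 91924514. ARID1B itself, which checks the labels, stood at 2.29, 1.31 and 2.05 FPKM in the vector libraries and at 32.5, 21.0 and 28.3 FPKM in the ARID1B libraries. Of the fibroblast markers, 6 of 6 were among the genes tested, whereas the 4 blood markers summed to no more than 0.0597 FPKM and the 3 endothelial markers in the table to no more than 0.352 FPKM in any library. The 5 epithelial markers summed to 6.46 to 9.57 FPKM with the vector and 9.27 to 14.5 FPKM with ARID1B, nearly all of it from the keratins KRT8 and KRT18, with EPCAM at 0.255 FPKM or less and SFTPC at 0, and their part in the results was not tested. Vector replicate 2 stood apart, with a score of 48.5 on PC1 of a principal component analysis (63.8% of variance) and the other 5 libraries between -20.0 and 3.63. Replicate 3 of each group lay near a mixture of replicates 1 and 2, in which replicate 1 made up 81.9% (vector) and 69.3% (ARID1B). Among the 10 genes, 8 had vector replicate 3 between replicates 1 and 2 (85.0% of all genes tested) and 9 had ARID1B replicate 3 there (69.2% of all genes tested). Results are therefore given also without these libraries. In a bulk sample, fewer cells that express a gene and less RNA per cell cannot be told apart.

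MALAT1 and NEAT1 are long RNAs that stay in the nucleus. MALAT1 collects in nuclear speckles next to splicing factors, and NEAT1 is the scaffold of paraspeckles. The host genes work differently. Their introns release snoRNAs, which guide chemical modification of ribosomal RNA, while many of the spliced host RNAs are short-lived because translating ribosomes expose them to nonsense-mediated decay. Several host genes begin transcription at a pyrimidine-rich site, the terminal oligopyrimidine (TOP) motif, which they share with the genes of ribosomal proteins.

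Sequences at the starts of 8 of the 10 genes were found by symbol in the RefSeq promoter table (GRCh38.p14), in 9 entries, because MALAT1 has 2 starts there. NEAT1 and SNHG6 were not matched. The start sites of 6 host genes and of MALAT1 are shown because TOP-type starts tie host genes to the ribosomal protein genes that are compared with them here. Each run holds 45 bases before and 25 bases from the start, on the strand of the gene. Capitals mark the letters TATAA where these lie 40 to 15 bases before the start, and the run of C and T that opens at the first transcribed base.
SNHG5, chr6:85678709-85678778, minus strand: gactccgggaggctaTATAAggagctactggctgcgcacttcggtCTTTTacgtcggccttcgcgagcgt
ZFAS1, chr20:49278597-49278666, plus strand: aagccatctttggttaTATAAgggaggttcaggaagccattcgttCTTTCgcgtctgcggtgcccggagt
SNHG7, chr9:136728160-136728229, minus strand: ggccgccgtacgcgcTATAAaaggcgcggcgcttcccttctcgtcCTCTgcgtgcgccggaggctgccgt
SNHG8, chr4:118278717-118278786, plus strand: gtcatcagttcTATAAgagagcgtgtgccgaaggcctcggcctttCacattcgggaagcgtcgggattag
SNHG1, chr11:62855861-62855930, minus strand: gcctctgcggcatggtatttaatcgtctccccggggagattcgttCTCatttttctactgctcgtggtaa
GAS5, chr1:173869021-173869090, minus strand: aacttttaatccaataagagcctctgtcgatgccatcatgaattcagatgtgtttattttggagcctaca
MALAT1, chr11:65499000-65499069, plus strand: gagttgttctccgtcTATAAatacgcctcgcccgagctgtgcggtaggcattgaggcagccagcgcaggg

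The letters TATAA lay in that window in 5 of the 9 entries, those of SNHG5, SNHG7, SNHG8, ZFAS1 and one start of MALAT1, against 3.91% of all 35116 promoters in the table and 2.59% of those of tested genes. Anywhere in the 250 bases before and 50 bases from the start, on either strand, TATAA was found in 6 of the 9 entries and in 20.4% of all promoters. A start at C followed by at least 4 further pyrimidines was found in 2 of the 9 entries, SNHG5 and ZFAS1, against 4.07% of all promoters and 5.47% of those of tested genes. The entries not shown, that of EPB41L4A-AS1 and the other start of MALAT1, had neither feature. Such a match is a description of these letters in this window, and both searches were chosen after the expression values were known.

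**Figure D1:**
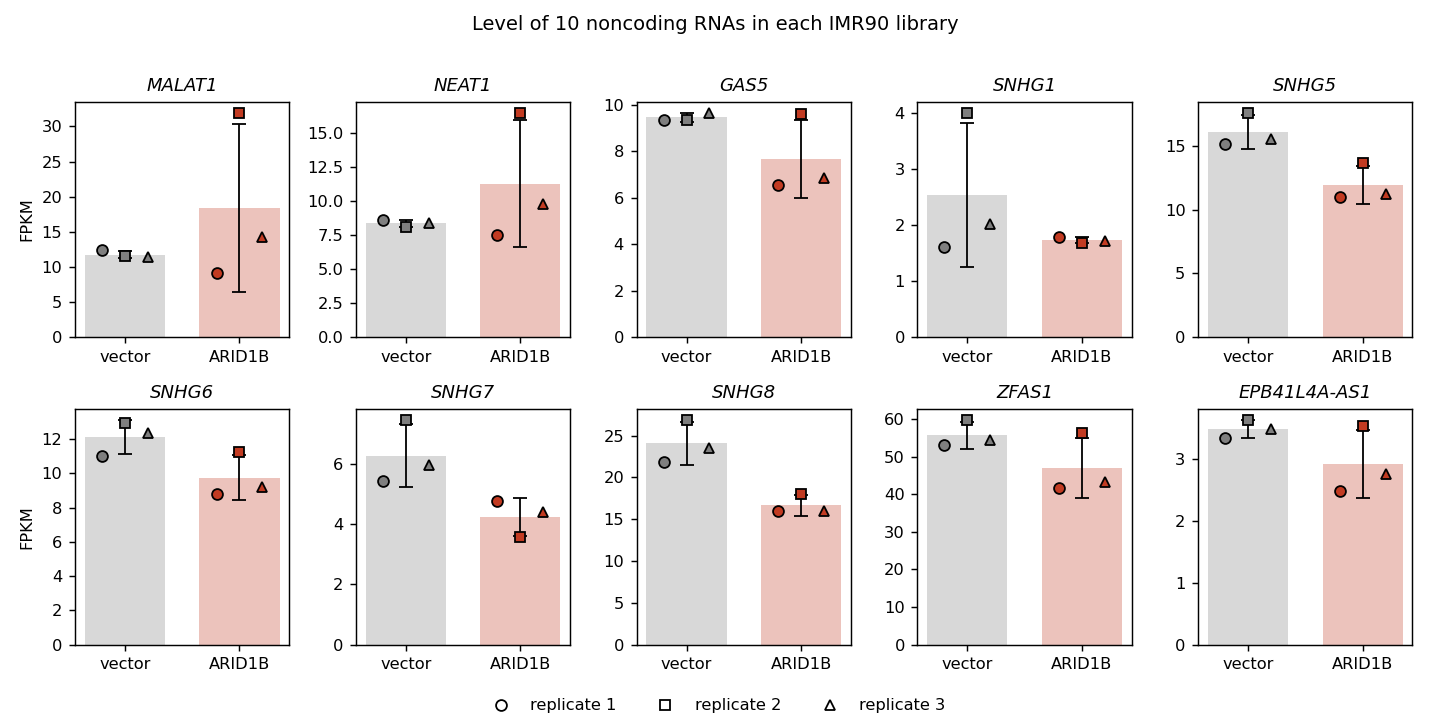
FPKM (vertical axes, linear from 0) of each of the 10 noncoding RNAs in vector (gray) and ARID1B (red) libraries of IMR90 cells. Bars show the mean of 3 libraries, whiskers its SD, and marker shapes the replicate. The groups are separate for SNHG5, SNHG7 and SNHG8, and ARID1B replicate 2 is the highest library for MALAT1 and NEAT1.

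None of the 10 noncoding RNAs passed the test between ARID1B and vector libraries. By limma on log2(FPKM + 1), with Benjamini-Hochberg adjustment over all genes tested, 0 of 10 had an adjusted p under 0.05, against 0.0288% of all genes tested. At an unadjusted p under 0.05, 3 of 10 had a lower level with ARID1B (SNHG5, SNHG7 and SNHG8), against 5.94% of all genes tested. The voom fit of limma on the recovered reads gave 0 of 10 at an adjusted p under 0.05 (0.0096% of all genes tested) and 3 of 10 lower at an unadjusted p under 0.05 (5.79% of all genes tested). On log2(FPKM + 1), the limma count lower at an unadjusted p under 0.05 was 6 of 10 without ARID1B replicate 2 (4.36% of all genes tested). It was 4 of 10 with a correction for GC content and length (4.84%) and 0 of 10 with both libraries numbered 3 left out (0.259%). The log2 change of the 10 had a median of -0.29, beside -0.02 for all genes tested. It was negative in 8 of 10, which are the 8 host genes, against 52.4% of all genes tested.

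**Figure D2:**
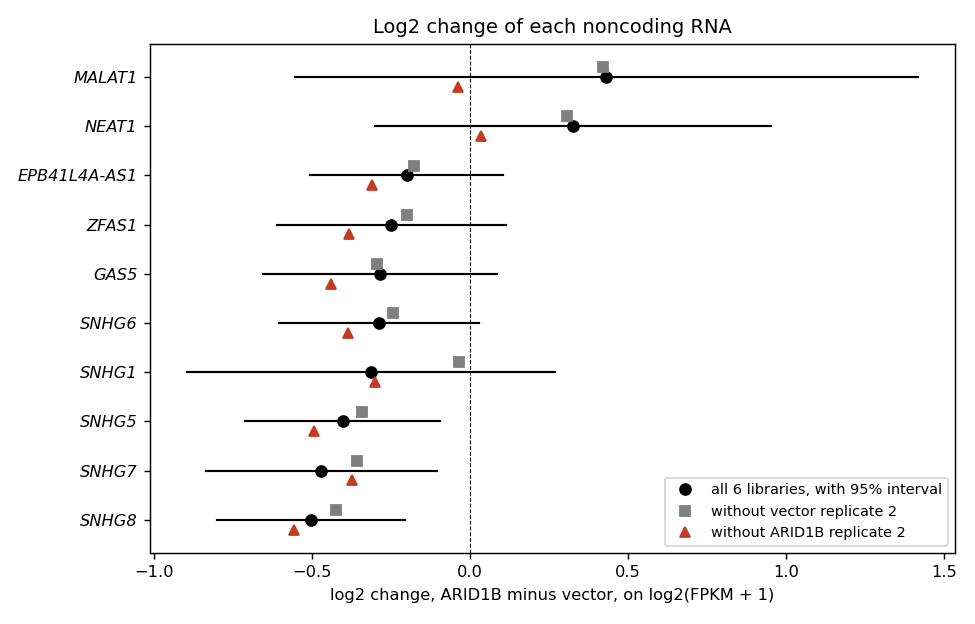
Log2 change (horizontal axis, ARID1B minus vector on log2(FPKM + 1)) of each noncoding RNA, with black lines for the 95% interval of the limma fit on 6 libraries. Gray squares and red triangles give the change without vector replicate 2 and without ARID1B replicate 2. The intervals of SNHG5, SNHG7 and SNHG8 lie below 0 before adjustment, and the change of MALAT1 moves from 0.43 to -0.039 without ARID1B replicate 2.

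SNHG8, the host of SNORA24, had the lowest log2 change of the 10 in the main fit. SNHG7 was lower than SNHG8 with a pseudocount of 0.1 and with voom. It was also lower without ARID1B replicate 1, without ARID1B replicate 3 and with both libraries numbered 3 left out. The level of SNHG8 was 21.8, 26.8 and 23.6 FPKM in the vector libraries and 16.0, 18.0 and 16.0 FPKM in the ARID1B libraries. Each ARID1B library lay below each vector library. The mean was 24.1 ± 2.56 FPKM (SD, n = 3) with the vector and 16.7 ± 1.204 FPKM (SD, n = 3) with ARID1B. This gave a log2 change of -0.50 (SE 0.123, limma adjusted p = 0.306), with a 95% interval from -0.80 to -0.21. The change stayed between -0.57 and -0.40 over all alternatives, with adjusted p from 0.0755 to 0.999. The lowest of these came without vector replicate 2, a fit in which 199 of all genes tested (1.91%) passed on the lower side and 0 of the 10 did.

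SNHG7 carries the SNORA17 snoRNAs and had no overlap between the groups either. It stood at 5.42, 7.43 and 5.95 FPKM in the vector libraries and at 4.75, 3.55 and 4.39 FPKM in the ARID1B libraries. Within each group replicate 2 was the extreme value, the highest of the vector and the lowest of ARID1B. The log2 change was -0.47 (SE 0.151, limma adjusted p = 0.387). SNHG7 has the most GC-rich transcript of the 10, at 65.9% GC for its longest form, and a correction for GC content and length took its change to -0.18 (limma adjusted p = 0.464).

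SNHG5, the host of SNORD50 snoRNAs, was the third gene without overlap. Its values were 15.2, 17.6 and 15.5 FPKM in the vector libraries and 10.97, 13.7 and 11.2 FPKM in the ARID1B libraries. The lowest vector library was above the highest ARID1B library. The log2 change was -0.40 (SE 0.128, limma adjusted p = 0.381), and it lay between -0.50 and -0.33 over all alternatives. Of the 10 noncoding RNAs, 3 had groups that did not overlap with ARID1B lower, against 11.1% of all genes tested, and 0 had groups that did not overlap with ARID1B higher, against 9.44%. For each of these 3 genes an exact permutation test over the 6 libraries gave a two-sided p of 0.1, below which 3 against 3 libraries cannot go.

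In 4 further host genes the groups overlapped through ARID1B replicate 2. GAS5, named for its accumulation in growth-arrested cells and the host of a series of box C/D snoRNAs, stood at 9.37, 9.36 and 9.67 FPKM in the vector libraries and at 6.56, 9.62 and 6.87 FPKM in the ARID1B libraries. ARID1B replicates 1 and 3 lay below each vector library, while replicate 2 lay between vector libraries. The vector libraries were close together, with a coefficient of variation of 1.86%, against 21.95% for ARID1B. The log2 change of GAS5 was -0.29 (SE 0.153, limma adjusted p = 0.565) and -0.44 (limma adjusted p = 0.360) without ARID1B replicate 2.

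ZFAS1, the host of the SNORD12 snoRNAs, showed the same order of ARID1B libraries. Its level was 53.0, 59.6 and 54.3 FPKM in the vector libraries and 41.6, 56.2 and 43.2 FPKM in the ARID1B libraries. ARID1B replicate 2 lay above 2 of the 3 vector libraries. The log2 change was -0.25 (SE 0.150, limma adjusted p = 0.612). It was -0.38 without ARID1B replicate 2 and -0.04 when GC content and length were corrected for.

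EPB41L4A-AS1, the host of SNORA13, was at 3.33, 3.62 and 3.47 FPKM in the vector libraries and at 2.47, 3.53 and 2.75 FPKM in the ARID1B libraries. Here too ARID1B replicate 2 lay among the vector libraries and the other two lay below them. Its log2 change of -0.20 (SE 0.127, limma adjusted p = 0.624) was the smallest of the 10 in size in the main fit. That of ZFAS1 was smaller with a pseudocount of 0.1, at -0.255 against -0.259, and with voom, at -0.257 against -0.269. SNHG6, the host of SNORD87, was at 11.02, 12.96 and 12.4 FPKM in the vector libraries and at 8.81, 11.3 and 9.20 FPKM in the ARID1B libraries. ARID1B replicate 2 exceeded only vector replicate 1. Its log2 change was -0.29 (SE 0.131, limma adjusted p = 0.50).

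SNHG1, the host of SNORD22, SNORD25 and further box C/D snoRNAs, followed a different order. It stood at 1.60, 4.00 and 2.01 FPKM in the vector libraries and at 1.79, 1.68 and 1.72 FPKM in the ARID1B libraries. The vector group spanned a 2.49-fold range, while the ARID1B libraries lay within a 1.06-fold range. Vector replicate 2 was 1.99 times the next library. With it the log2 change was -0.31 (SE 0.241, limma adjusted p = 0.681), and without it -0.04 (limma adjusted p = 0.848).

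Replicate order was shared among the host genes beyond SNHG1. Vector replicate 2 was the highest of the 6 libraries for 7 of the 10 noncoding RNAs (7 of the 8 hosts), against 39.5% of all genes tested. ARID1B replicate 1 was the lowest library for 7 of the 10 (5 of the 8 hosts), against 8.02% of all genes tested. Recovered reads of the 8 hosts summed to 407, 491 and 430 per 1000000 reads of the library in the vector libraries and to 312, 391 and 319 per 1000000 in the ARID1B libraries. Every ARID1B sum was below every vector sum, at 341 ± 44.0 (SD, n = 3) against 443 ± 43.1 (SD, n = 3). By recovered reads, which a common divisor would understate, GAS5 and SNHG5 weigh most in the sum. The median log2 change of the 8 hosts was -0.30, and it was -0.27 without vector replicate 2, -0.39 without ARID1B replicate 2 and -0.31 with both libraries numbered 3 left out.

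MALAT1 and NEAT1 had the only positive changes among the 10, and these depended largely on ARID1B replicate 2. In both genes ARID1B replicate 3 also lay above each vector library, and ARID1B replicate 1 lay below each of them. MALAT1 stood at 12.3, 11.5 and 11.3 FPKM in the vector libraries and at 9.08, 31.9 and 14.2 FPKM in the ARID1B libraries. ARID1B replicate 2 was 2.25 times the next library, and ARID1B replicate 1 was the lowest of all 6. Its mean was 11.7 ± 0.528 FPKM (SD, n = 3) with the vector and 18.4 ± 12.0 FPKM (SD, n = 3) with ARID1B. The log2 change was 0.43 (SE 0.409, limma adjusted p = 0.732), with a 95% interval from -0.56 to 1.42. It was -0.039 without ARID1B replicate 2 and 0.82 without ARID1B replicate 1.

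NEAT1 followed MALAT1 library by library within ARID1B. Its values were 8.57, 8.11 and 8.35 FPKM in the vector libraries and 7.52, 16.5 and 9.76 FPKM in the ARID1B libraries. Replicate 2 was again the highest, at 1.69 times the next library, and replicate 1 the lowest. The log2 change was 0.33 (SE 0.259, limma adjusted p = 0.692). It was 0.04 without ARID1B replicate 2, 0.55 without ARID1B replicate 1 and 0.14 when GC content and length were corrected for. ARID1B replicate 2 was the highest library for 2 of the 10 noncoding RNAs, MALAT1 and NEAT1, against 12.9% of all genes tested. A ratio to the next library as large as that of MALAT1 was found in this library for 41 genes (0.394% of those tested), and one as large as that of NEAT1 for 72 (0.691%).

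The ratio of MALAT1 to NEAT1 in FPKM was 1.44, 1.42 and 1.36 in the vector libraries and 1.21, 1.94 and 1.46 in the ARID1B libraries. MALAT1 therefore stood out more than NEAT1 in ARID1B replicate 2. Reads of both genes together made up 885 per 1000000 reads of that library, against 325 to 457 in the other 5. Where RNA is captured by poly(A), stretches of A in the sequence itself can bind as well. The longest such stretch of MALAT1 is shown because this RNA ends without a poly(A) tail. It was read from the longest GENCODE v29 transcript of the gene, with capitals marking the run of A. Its position is relative to the annotated end, and the end of the processed RNA was not located. Whether this stretch was captured was not tested.
MALAT1, a run of 13 A that ends 359 bases before the end of the 8708-base transcript: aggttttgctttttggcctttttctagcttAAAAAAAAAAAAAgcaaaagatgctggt

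Of 13 listed RNAs that carry no poly(A) tail, 2 passed the filter on low values and were tested. RN7SK, a regulator of transcription elongation, stood at 2.21, 20.1 and 22.9 FPKM in the vector libraries and at 1.25, 2.24 and 3.09 FPKM in the ARID1B libraries, with an adjusted p of 0.465 from limma. RN7SL2, an RNA of the signal recognition particle, stood at 4.35, 3.61 and 19.2 FPKM in the vector libraries and at 3.17, 3.68 and 7.98 FPKM in the ARID1B libraries, with an adjusted p of 0.780 from limma. ARID1B replicate 2 was the highest library for neither. Of the listed RNAs below the filter, RNY1 was highest there, at 0.597 FPKM, and at 0 in ARID1B replicate 1, and SNORD3A was highest there at 0.0579 FPKM, both named after their values were seen. The part of these RNAs in the levels of MALAT1 and NEAT1 was not tested.

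**Figure D3:**
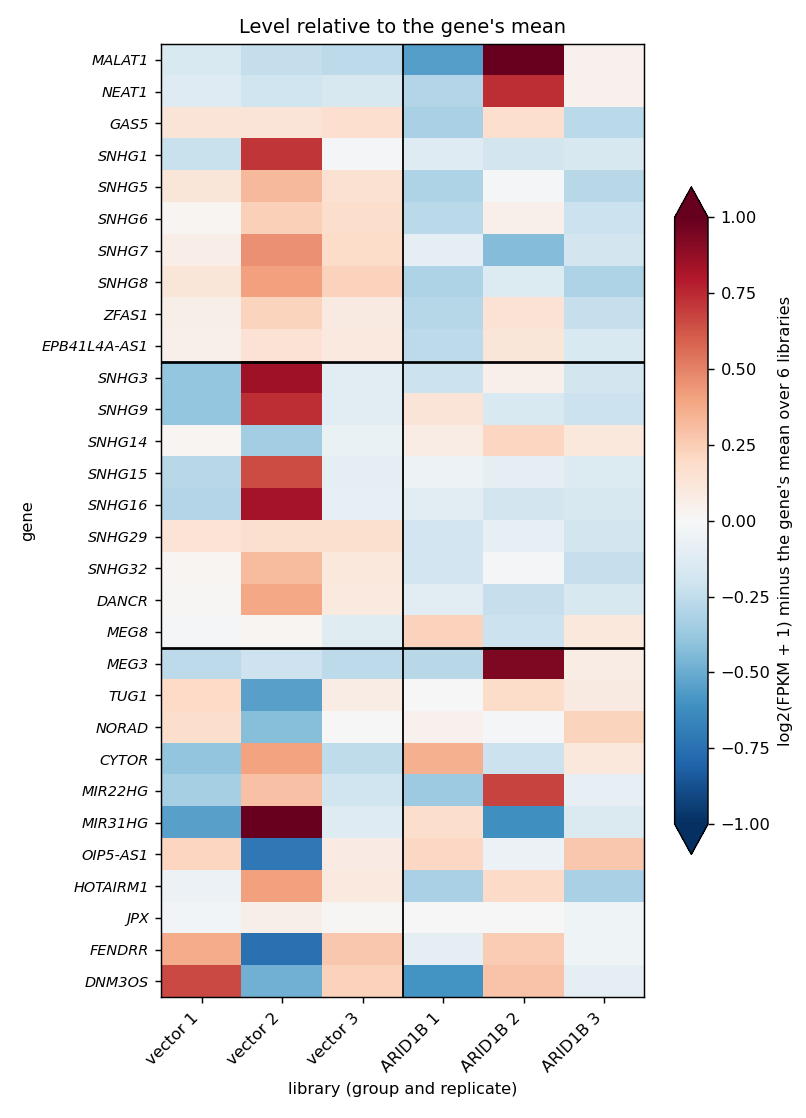
Level of each noncoding RNA in each library relative to the gene's own mean over 6 libraries (color, log2(FPKM + 1) minus the mean, cut at 1 in either direction). The top block holds the 10 genes described, the middle block 9 other long noncoding hosts of snoRNAs and the bottom block 11 other long noncoding RNAs. MALAT1, NEAT1 and MEG3 are highest in ARID1B replicate 2, and SNHG1 is highest in vector replicate 2.

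Other noncoding genes were listed to set beside the 10. Of 18 other long noncoding hosts of snoRNAs, 9 were tested, and 0 rose and 0 fell by limma. At an unadjusted p under 0.05, 2 were lower (5.94% of all genes tested). Their median log2 change was -0.23, and 7 of 9 had a negative change (52.4% of all genes tested). SNHG29, listed as C17orf76-AS1, stood at 26.2, 26.6 and 26.6 FPKM in the vector libraries and at 20.6, 22.3 and 20.8 FPKM in the ARID1B libraries (limma adjusted p = 0.387). DANCR had a log2 change of -0.33 (limma adjusted p = 0.464), also without overlap between the groups. Vector replicate 2 was the highest library for 6 of the 9 (39.5% of all genes tested), and without it their median turned to 0.09. That of the 8 hosts described above was -0.27 in the same fit.

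Among other long noncoding RNAs, 7 of 11 had a positive change and 4 a negative one, against 52.4% negative over all genes tested. Of 31 listed, 11 were tested, 0 rose and 0 fell, and none had an unadjusted p under 0.05. Their median log2 change was 0.15, and it was -0.03 without ARID1B replicate 2 and -0.007 without vector replicate 2. MEG3, an imprinted RNA, had library values close to the MALAT1 pattern, at 11.2, 11.7 and 11.3 FPKM in the vector libraries and at 11.1, 27.0 and 14.4 FPKM in the ARID1B libraries (limma adjusted p = 0.618). HOTAIRM1, transcribed from the HOXA cluster, had a log2 change of -0.30 (limma adjusted p = 0.629). Over all 340 tested genes that GENCODE v29 types as long noncoding, the median log2 change was -0.07, with 62.6% negative.

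The proteins these RNAs work with were listed as well. All 8 snoRNP proteins, which package snoRNAs into particles, were tested, and none passed. Their median log2 change was -0.18, with 7 of 8 negative (52.4% of all genes tested), and it was 0.10 without vector replicate 2. That library was the highest for 8 of 8 (39.5% of all genes tested). FBL, the methyltransferase of box C/D particles, stood at 17.03, 29.9 and 18.9 FPKM in the vector libraries and at 16.5, 12.3 and 14.9 FPKM in the ARID1B libraries, with an adjusted p of 0.489 from limma. SNU13, the RNA-binding protein listed as NHP2L1, had an adjusted p of 0.773 from limma. SNHG1 shared vector replicate 2 as its highest library with these proteins, and their part in its level was not tested.

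Of 14 paraspeckle proteins, 0 passed, with a median log2 change of -0.07. ARID1B replicate 2, the library where NEAT1 was highest, was the highest for 0 of them, against 12.9% of all genes tested. NONO, a core protein of paraspeckles, had a log2 change of -0.20 (limma adjusted p = 0.580) and FAM98A one of 0.21 (limma adjusted p = 0.664). Of 9 tested proteins that process the ends of MALAT1 and NEAT1, mainly RNase P subunits, 0 passed, with a median of -0.13. The smallest p among them were those of POP5, at a log2 change of -0.24 (limma adjusted p = 0.746), and RPP38, at -0.11 (limma adjusted p = 0.777).

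Of 15 factors of nonsense-mediated decay, the pathway that degrades many spliced host RNAs, 0 passed. Their median log2 change was -0.09, and without vector replicate 2 it was 0.02. SMG9 had a log2 change of -0.42 (limma adjusted p = 0.465) and UPF3B one of -0.20 (limma adjusted p = 0.613).

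**Figure D4:**
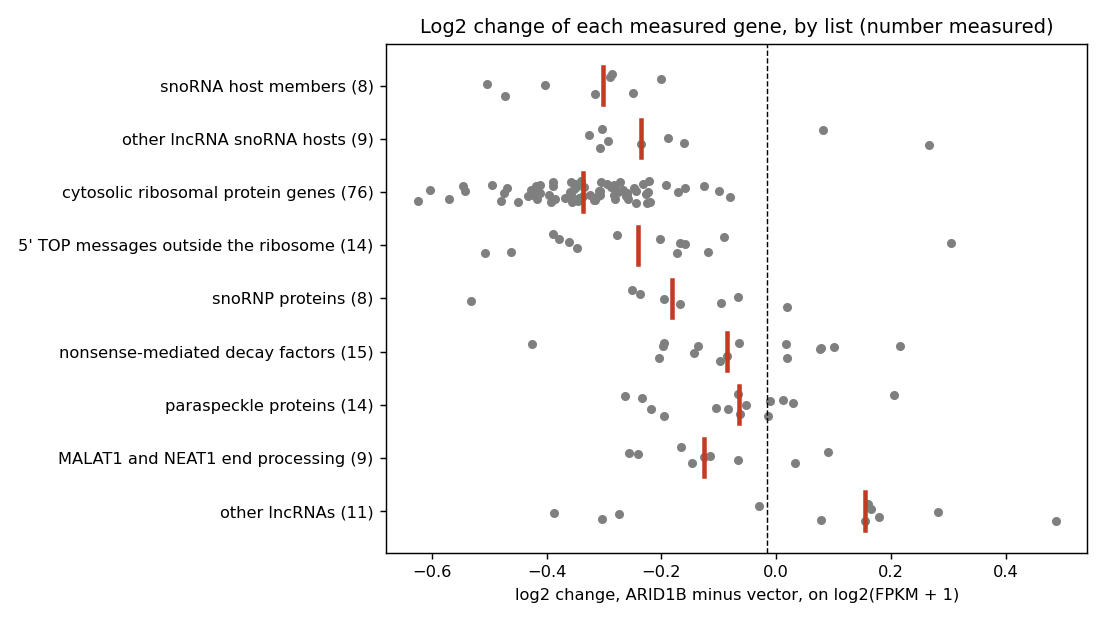
Log2 change (horizontal axis, ARID1B minus vector on log2(FPKM + 1)) of each tested gene by list, with points spread vertically for visibility, red lines at the median of each list and a dashed line at the median of all genes tested (-0.02). The 8 host genes (median -0.30) and the 76 ribosomal protein genes (median -0.34) all lie below 0.

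Genes of cytosolic ribosomal proteins, which share TOP-type starts with several host genes, lay on the same side as the 8 hosts. Of 76 tested, 0 passed the adjusted threshold and 35 were lower at an unadjusted p under 0.05 by limma (5.94% of all genes tested). A negative change was found in 76 (52.4% of all genes tested). Groups did not overlap, with ARID1B lower, in 55 of 76 (11.1% of all genes tested). Their median log2 change was -0.34, and it was -0.23 without vector replicate 2. That library was the highest for 70 of 76 (39.5% of all genes tested). RPL13A, itself a host of snoRNAs, stood at 145, 157 and 149 FPKM in the vector libraries and at 112, 115 and 104 FPKM in the ARID1B libraries (limma adjusted p = 0.307). RPS3 had a log2 change of -0.41 (limma adjusted p = 0.318). The ARID1B libraries of RPL13A lay close together, whereas those of GAS5 and ZFAS1 were split by replicate 2. Ribosomal protein genes differed in this. In RPS27 and RPL39, named after their values were seen, ARID1B replicate 2 also stood above the other ARID1B libraries.

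Of 14 tested TOP messages for proteins outside the ribosome, such as translation factors, 0 passed and the median log2 change was -0.24. At an unadjusted p under 0.05 by limma, 5 were lower (5.94% of all genes tested). EIF3F, a subunit of an initiation factor, had a log2 change of -0.38 (limma adjusted p = 0.313) and RACK1, listed as GNB2L1, one of -0.39 (limma adjusted p = 0.339). By sequence, 430 tested genes had a RefSeq start at C with at least 4 further pyrimidines, as SNHG5 and ZFAS1 do. Their median log2 change was -0.11 with 65.8% negative, against -0.01 and 51.0% for the 7106 tested genes without such a start. This split was chosen after the values of the host genes were known. It used the first RefSeq entry of each symbol and left out tested genes without an entry. Ribosomal protein genes and host genes were not removed, so the split is not separate from their values above.

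The snoRNAs themselves held few reads. In the annotation used, GENCODE v29, 18 snoRNA genes lay within the hosts, of which 5 were matched to the table by identifier, and none of the 18 lay in GAS5. SNORD87, in SNHG6, was at 0 in all libraries, and the other 4 held 209 reads over all libraries, while each host held at least 889 reads in each library. The SNORD12 family of ZFAS1 is shown because its members guide the same kind of modification from 1 host and differ in reads. Coordinates are those of GENCODE v29 (GRCh38), on the plus strand, and capitals mark the C box (TGATGA) and the D box (CTGA) that define a box C/D snoRNA.
SNORD12, chr20:49280683-49280772: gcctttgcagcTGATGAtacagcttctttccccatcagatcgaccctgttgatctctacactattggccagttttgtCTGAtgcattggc
SNORD12B, chr20:49280319-49280409: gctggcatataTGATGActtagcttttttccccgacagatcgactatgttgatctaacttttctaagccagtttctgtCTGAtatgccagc
SNORD12C, chr20:49278940-49279028: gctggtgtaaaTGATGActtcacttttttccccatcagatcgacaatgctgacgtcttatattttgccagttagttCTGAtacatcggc

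SNORD12 held 18, 11 and 10 reads in the vector libraries and 10, 25 and 15 reads in the ARID1B libraries. It overlaps an exon of an annotated ZFAS1 transcript, while SNORD12B and SNORD12C lie in introns of every annotated form. SNORD12B held 5, 12 and 6 reads in the vector libraries and 17, 10 and 12 reads in the ARID1B libraries. SNORD12C held 12 reads in all 6 libraries together. SNORA13, a box H/ACA snoRNA in an intron of EPB41L4A-AS1, held 46 reads in all, between 0 and 24 per library. The groups of SNORD12 and SNORD12B overlapped, and at these counts a difference between groups was not detectable. By symbol alone, 27 of 28 listed snoRNAs of the hosts had a row in the table, with 18 at 0 in all libraries. SNORD78, a snoRNA known from GAS5, has 3 rows under its symbol, 2 of them at 0 throughout, and none was tied to GAS5 by position here. The other row (ENSG00000208317) stood at 4.78, 5.61 and 4.61 FPKM in the vector libraries and at 3.95, 0.415 and 4.69 FPKM in the ARID1B libraries. ARID1B replicate 2 was far below the other 5 libraries, and the log2 change was -0.81 (limma adjusted p = 0.631).

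**Figure D5:**
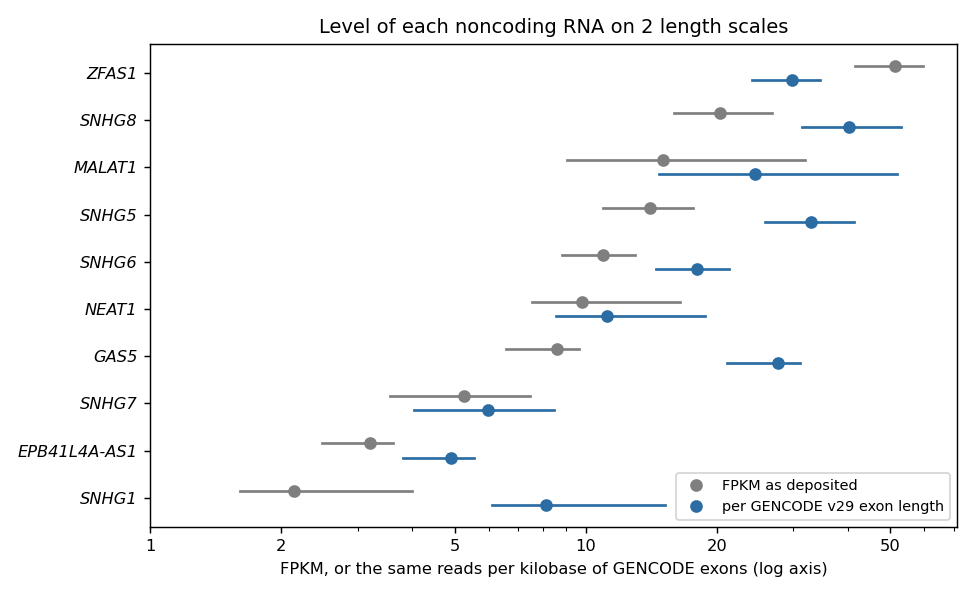
Level of each noncoding RNA (horizontal axis, logarithmic) as deposited in FPKM (gray) and recomputed from the recovered reads per kilobase of GENCODE v29 exons (blue). Points give the mean and lines the range over 6 libraries. ZFAS1 is highest as deposited (mean 51.3 FPKM) and SNHG8 is highest per GENCODE exon length (mean 40.2).

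Levels of the 10 genes differed widely. Mean FPKM over the 6 libraries was highest for ZFAS1 at 51.3, then SNHG8 at 20.4, MALAT1 at 15.1, SNHG5 at 14.0, SNHG6 at 10.9, NEAT1 at 9.80 and GAS5 at 8.57. SNHG7 followed at 5.25, EPB41L4A-AS1 at 3.20 and SNHG1 at 2.13. The range of ZFAS1 over the libraries did not overlap that of SNHG8, while each other neighbor in this order overlapped the next. ZFAS1 lay above 95.8% of the genes tested, but EPB41L4A-AS1 lay above 36.5% and SNHG1 above 22.2%, so these last 2 were not abundant by FPKM.

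This order depends on the gene length behind each FPKM value. The steps of the values give a length of 11694 bases for GAS5, 14273 for SNHG1 and 1299 for ZFAS1, whereas the exons of GENCODE v29 cover 3631, 3756 and 2243 bases. Per kilobase of GENCODE exons SNHG8 came first at 40.2, followed by SNHG5 at 32.9, ZFAS1 at 29.7, GAS5 at 27.6 and MALAT1 at 24.5, and each neighbor overlapped the next over the whole order of 10. ZFAS1 alone of the 10 had a length from the steps shorter than its GENCODE exons. A common divisor of its reads would place it higher in this second order, and this was not tested. SNHG1 lay above 54.2% of the genes tested on this scale. One length is used for all libraries of a gene, so ratios of FPKM between libraries do not depend on it, but the log2(FPKM + 1) changes do where FPKM is low. The log2 change of SNHG1 was -0.42 with a pseudocount of 0.1 and -0.44 with voom, beside -0.31.

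Some of the 10 genes share their position with others. In GENCODE v29 GAS5 overlaps GAS5-AS1 and ZBTB37 on the opposite strand, ZFAS1 overlaps ZNFX1, SNHG7 overlaps FAM69B, SNHG6 overlaps MCMDC2, MALAT1 overlaps AP000769.2 and EPB41L4A-AS1 overlaps EPB41L4A. The kit keeps the strand, but whether the counting used it is not given in the sources used here, and reads of such pairs are uncertain to that extent.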

How the data were processed

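The authors deposited 1 table of FPKM values for 57232 genes in 3 vector and 3 ARID1B libraries. The submitters' processing notes list TopHat2 (2.0.11), HTSeq (0.5.3p9) and DESeq2 as tools and hg19 as the build, and do not assign them to steps. Coordinates here are of GRCh38 and are not those of the table. Low FPKM values step by whole reads, which gave library totals and the reads of each gene, and all 10416 tested genes came out whole in each library, to within 0.002 reads. Length and reads of a gene are underestimated by any common divisor of its reads. Intervals cover the spread between libraries, which includes counting error. The host genes held 889 or more reads per library, and the part of counting error in their spread was not estimated.

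Genes averaging 1 FPKM or more were tested with limma 3.58.1 (R 4.3.3) on log2(FPKM + 1) with a variance trend, two-sided, adjusted by Benjamini-Hochberg and called at 0.05. The pseudocount of 1 understates changes of low genes. No count test served as the main result, since the values are FPKM. Groups came from the sample titles. Alternatives were median-ratio rescaling, a fit without the variance trend, quantile normalization, a minimum average of 5 FPKM or none, a pseudocount of 0.1, a replicate block, each library left out, both libraries numbered 3 left out, a correction for GC content and length (splines with 5 degrees of freedom, 97.9% of genes matched) and voom on the recovered reads. The tests were checked on simulated data. The 10 genes and all lists were chosen with earlier results of these data known. Named genes are the 10, ARID1B and, from each list, where none passed, the 2 with the smallest p. Reads were recovered in Python 3.11.15, permutation tests run with scipy 1.17.1 and plots drawn with matplotlib 3.10.9. Some items are not reported here.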

Additional observations from a re-analysis of the deposited data

How the results depend on the processing

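Of 158 log2 changes of single noncoding RNAs over 16 alternatives, 157 kept their direction and their side of the threshold. The exception was MALAT1, which turned to -0.039 without ARID1B replicate 2 and ran from -0.039 to 0.82 when each library was left out. The other filters on low values, the fit without the variance trend and the replicate block leave the log2 change itself unchanged. In those alternatives only the side of the threshold could move. The count of the 10 past the threshold was 0 in every alternative. Over all genes, 3 were higher and 0 lower. The count of higher genes was 0 with no filter on low values, 0 with the replicate block, 0 with both libraries numbered 3 left out, 5 with the GC content and length correction and 1 with voom. Leaving out each library gave 0 to 125 higher and 0 to 199 lower, and the highest counts came without vector replicate 2. The cause was not tested. Deviations of libraries with the same number correlated at -0.46, -0.43 and -0.17. Deviations from the mean of 3 libraries depend on each other, so these values do not show whether libraries of the same number shared a culture. With the replicate block in limma, 2 rather than 3 of the 10 had an unadjusted p under 0.05 on the lower side (2.52% of all genes tested). The 4 snoRNAs matched by identifier and above 0 held 209 reads in all.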
